A study of Caenorhabditis elegans with 2 samples.

Results

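The genes described here serve the early secretory pathway of Caenorhabditis elegans, in which proteins enter the endoplasmic reticulum (ER) through the Sec61 translocon and leave it in vesicles. They were chosen by name, as the protein-coding genes whose name starts with sec-, trap-, copa-, copb-, copd-, cope-, copg-, copz-, sar- or arf-. The rule found 34 of 19973 nuclear protein-coding genes in the Ensembl annotation. Occupancy near them by NHR-25, a nuclear hormone receptor, was read from ChIP-seq of whole L3 larvae, pooled male and female. The strain, OP33, carries unc-119(ed3) III and the transgene wgIs33, which expresses NHR-25 with a C-terminal GFP-FLAG tag. The 2 samples, biological replicates 1 and 2, form a single group, and no other stage, strain or treatment was analysed here. Because whole animals were used, the lists do not tell which cells carried the receptor at a site.

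A promoter window covered 2000 bp upstream and 200 bp downstream of a gene's annotated 5′ end. A summit is the highest point of a peak, and the reproducible list is the authors' list of 5017 peaks thresholded on the irreproducible discovery rate (IDR), on assembly ce11. Signal is the authors' own height for each peak and was used only to rank and describe peaks. The lists of single replicates and of the pooled samples have 30000 regions each, background regions included. Read totals were not used here, so the depth of either library is unknown. The reproducible summits themselves chose which genes count as bound, and the genes were proposed with earlier results of these data known, so all counts are descriptions with no test.

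The Sec61 channel is a heterotrimer that threads nascent chains into or across the ER membrane, and the translocon-associated protein (TRAP) complex binds beside it and helps some substrates through. COPII coats, assembled by the GTPase SAR-1, carry cargo from the ER towards the Golgi, and COPI coats, recruited by Arf GTPases, carry proteins back. In the larval epidermis this pathway exports collagens and other cuticle proteins at each molt. The name rule is wider than translocon and coats, since it also takes in 6 exocyst genes, 2 SNARE genes, 3 Arf GTPase genes and the signal peptidase gene sec-11. Translocon, TRAP, COPI and COPII genes made up the other 22.

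Of the 34 genes, 20 had a reproducible summit in the promoter window (58.8%, exact 95% interval 40.7 to 75.35, counting error over genes only), against 18.4% of all nuclear protein-coding genes. The interval treats genes as independent, although sec-61.B and trap-3 share a summit and the genes were proposed with earlier results known. It is therefore no test against the share of all genes. By role, all 3 translocon genes and all 4 TRAP genes had one, as did 5 of 7 COPI genes, 4 of 8 COPII genes, 3 of 6 exocyst genes and sec-11. None of the 3 Arf GTPase genes and neither SNARE gene did. The 20 genes were served by 20 distinct summits, because sec-61.B and trap-3 share one and sec-61.G has 2.

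The sequences under 4 of the 5 strongest summits are shown: the 3 highest, at translocon and TRAP promoters, and that of sec-24.1, the highest of a coat gene. Each is printed 5′ to 3′ on the coding strand of the gene named last, from the RefSeq copy of the same assembly, with the 11 bases centred on the summit in capitals. They lie at chrV:10897265-10897465 (minus strand), chrIV:2389032-2389232 (plus), chrX:768174-768374 (minus) and chrIV:11566258-11566458 (minus).
sec-61.G: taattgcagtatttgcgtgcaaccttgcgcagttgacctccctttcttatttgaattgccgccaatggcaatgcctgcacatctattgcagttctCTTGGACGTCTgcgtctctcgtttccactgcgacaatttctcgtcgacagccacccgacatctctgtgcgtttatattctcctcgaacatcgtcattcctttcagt
sec-61.B/trap-3: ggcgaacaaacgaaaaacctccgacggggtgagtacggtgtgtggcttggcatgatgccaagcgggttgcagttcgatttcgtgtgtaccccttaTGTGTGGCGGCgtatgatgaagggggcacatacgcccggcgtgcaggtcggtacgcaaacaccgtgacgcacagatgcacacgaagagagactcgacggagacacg
trap-2: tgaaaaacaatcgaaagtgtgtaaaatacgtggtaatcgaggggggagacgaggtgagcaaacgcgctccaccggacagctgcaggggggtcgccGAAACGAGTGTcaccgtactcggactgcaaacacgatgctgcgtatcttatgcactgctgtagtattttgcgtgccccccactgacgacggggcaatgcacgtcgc
sec-24.1: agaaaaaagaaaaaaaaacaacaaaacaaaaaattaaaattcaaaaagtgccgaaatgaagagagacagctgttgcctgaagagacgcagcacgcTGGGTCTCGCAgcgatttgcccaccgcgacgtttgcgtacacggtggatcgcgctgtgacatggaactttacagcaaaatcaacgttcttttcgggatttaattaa
G and C made up 47.8%, 58.2%, 55.7% and 42.3% of these windows, in the order printed. The median was 44.0% over the 20 summits of the secretory genes and 41.8% over all reproducible summits in promoter windows.

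Of the 20 summits, the highest was that of sec-61.G and the next was shared by sec-61.B and trap-3. sec-61.G encodes the small gamma subunit of the Sec61 channel and lies on chromosome V from 10896658 to 10897143, on the minus strand. Its main peak, from 10897253 to 10897495, had a signal of 286.2 in replicate 1, 342.8 in replicate 2 and 627.8 in the pooled list. It was the peak ranked 8 of 5017, and it ranked 7 and 9 in the replicate lists, so both samples placed it near the top. The summit was intergenic, 222 bp upstream of sec-61.G, and it also fell in the windows of F32D8.7 and F32D8.13. A lower summit 1672 bp upstream had signals of 36.98 in replicate 1, 40.83 in replicate 2 and 78.92 pooled. That one lay in a coding exon of F32D8.7, whose 5′ end was nearer to it at 380 bp.

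sec-61.B, the beta subunit gene, and trap-3, a TRAP subunit gene, are divergent neighbours on chromosome IV with 769 bp between their 5′ ends. Their shared peak, from 2389003 to 2389258, had a signal of 157.9 in replicate 1, 284.1 in replicate 2 and 442.0 pooled, and ranked 30. Its summit lay 457 bp upstream of sec-61.B and 313 bp upstream of trap-3, within the non-coding gene Y38F2AR.17, and in the window of eri-5 as well. A peak between 2 divergent genes cannot be given to either from these lists.

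sec-61.A encodes the pore-forming alpha subunit and had a lower peak than the other translocon genes. Its signal was 45.55 in replicate 1, 40.25 in replicate 2 and 93.64 pooled, with rank 1762. This was the only one of the 20 summits downstream of the 5′ end of the gene concerned, 50 bp into an untranslated exon of sec-61.A. Its window is shared with rps-18, a ribosomal protein gene that runs in the other direction, with 414 bp between the 5′ ends.

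The TRAP genes had pooled signals from 96.23 to 442.0. For trap-2, on X, the signal was 111.1 in replicate 1, 227.4 in replicate 2 and 334.4 pooled, with a summit 205 bp upstream. Replicate 2 was higher than replicate 1 by 1.03 on the log2 scale, the widest gap among the 20 summits. The same summit fell in the window of ile-2. For trap-1, on I, the signal was 81.56 in replicate 1, 91.12 in replicate 2 and 167.8 pooled, 227 bp upstream and also in the window of nxt-1. For trap-4, on III, it was 43.06 in replicate 1, 50.36 in replicate 2 and 96.23 pooled, 267 bp upstream, and 231 bp from the 5′ end of ccf-1. The last summit fell in 4 windows, those of trap-4, ccf-1, znf-593 and Y56A3A.22.

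**Figure D1:**
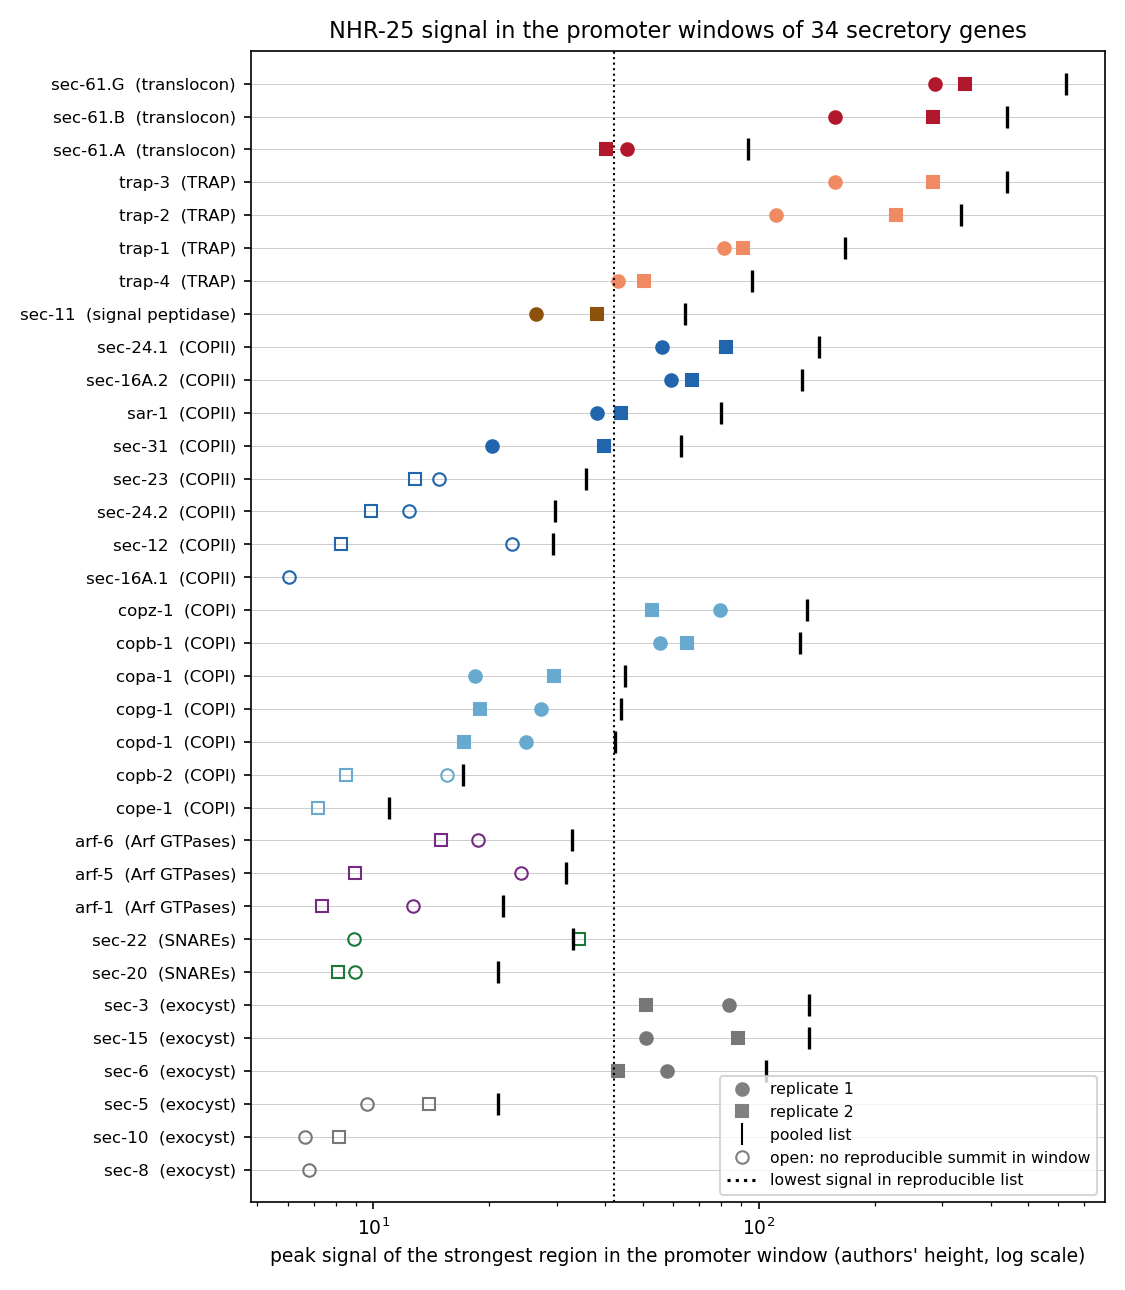
Signal of the strongest region in the promoter window of each of the 34 genes (x axis, authors' height, log scale), grouped by role, with circles for replicate 1, squares for replicate 2 and bars for the pooled list. Filled symbols mark the 20 genes with a reproducible summit; sec-61.G, sec-61.B, trap-3 and trap-2 lie at the high end, and sec-16A.1, sec-10 and sec-8 have no pooled region in the window. Symbols on a line can stand for different regions of the same window.

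The 4 genes sec-61.G, sec-61.B, trap-3 and trap-2 had a summit among the 100 strongest peaks, which reached 0.576% of all protein-coding genes. By the 2000 strongest peaks all 7 translocon and TRAP genes had one, against 8.73% of all genes. Over the same 2000 peaks, 4 of the 15 coat genes and 3 of the other 12 had one. The coat genes copa-1, copg-1 and copd-1 were reached only by peaks past rank 4500.

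**Figure D2:**
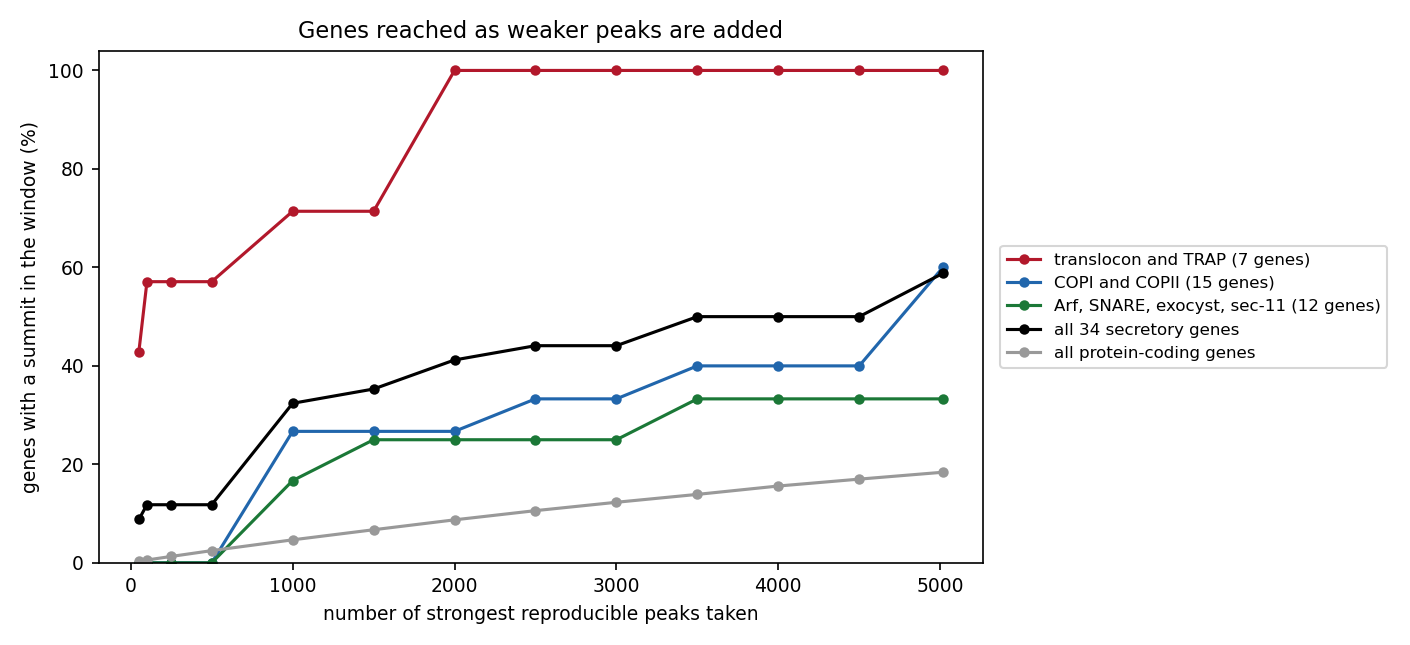
Share of genes with a summit in the promoter window (y axis, %) as weaker reproducible peaks are added (x axis, number of strongest peaks taken). Translocon and TRAP genes have all been reached within 2000 peaks, coat genes reach 60.0% and all protein-coding genes 18.4% at the end of the list.

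Of the COPII genes, 4 had a summit and 4 did not. sec-24.1 encodes a cargo-binding coat protein and had a signal of 56.26 in replicate 1, 82.54 in replicate 2 and 143.9 pooled, 164 bp upstream. sec-16A.2, a gene of the Sec16 scaffold family, had 59.2 in replicate 1, 67.19 in replicate 2 and 129.5 pooled, 295 bp upstream. sar-1, the GTPase that starts the coat, had 38.15 in replicate 1, 44.0 in replicate 2 and 79.94 pooled, 339 bp upstream. sec-31 encodes an outer coat protein. It had 20.37 in replicate 1, 39.75 in replicate 2 and 62.76 pooled, 68 bp upstream, and was outside the 5017 highest-signal peaks of replicate 1. The summits of sec-16A.2, sar-1 and sec-31 also fell in the windows of fis-2, ZK180.8 and cbd-1, in that order. The related genes sec-24.2, sec-16A.1, sec-23 and sec-12, the exchange factor gene for SAR-1, had no reproducible summit in the window. For sec-24.2 the strongest pooled region reached 29.7, against 143.9 for sec-24.1.

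Among the COPI subunit genes, copz-1 and copb-1 stood above the others. copz-1, the zeta subunit gene, had a signal of 79.33 in replicate 1, 52.84 in replicate 2 and 133.5 pooled, 143 bp upstream. The summit lay between copz-1 and the divergent gene cyn-4, nearer to cyn-4 at 125 bp, and in the window of orc-2. copb-1, the beta subunit gene, had 55.36 in replicate 1, 65.13 in replicate 2 and 128.4 pooled, but 1672 bp upstream and only 165 bp from the 5′ end of Y25C1A.8. For copa-1, copg-1 and copd-1 the pooled signal was close to the end of the list, and copb-2 and cope-1 had no reproducible summit in the window. copa-1 had 18.31 in replicate 1, 29.52 in replicate 2 and 45.03 pooled, 236 bp upstream and 229 bp from the 5′ end of gst-43. copg-1 had 27.27 in replicate 1, 18.89 in replicate 2 and 43.81 pooled, with its summit also in the window of tsp-12. copd-1 had 24.89 in replicate 1, 17.18 in replicate 2 and 42.33 pooled, at rank 4998, and the lowest signal in the list was 42.2. Each of these 3 was among the 5017 highest-signal peaks of only 1 replicate, copa-1 in replicate 2 and the others in replicate 1.

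The exocyst tethers secretory vesicles to the plasma membrane. sec-3 had a signal of 83.71 in replicate 1, 51.17 in replicate 2 and 135.2 pooled, 193 bp upstream. sec-15 had 50.88 in replicate 1, 88.41 in replicate 2 and 134.8 pooled, 264 bp upstream, and 37 bp from the 5′ end of C28G1.2. The pooled heights of these X-linked genes were alike although the replicates differed in opposite directions. sec-6 had 57.96 in replicate 1, 43.07 in replicate 2 and 104.4 pooled, 1162 bp upstream and 203 bp from the 5′ end of F09E5.11. sec-5, sec-8 and sec-10 had none. The summit counted for sec-11 lay 1821 bp upstream, in a coding exon of rpb-7 and 22 bp from the 5′ end of Y54E10BR.2. Its signal was 26.5 in replicate 1, 38.16 in replicate 2 and 64.28 pooled.

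Of the 14 genes without a reproducible summit in the window, 11 had a weaker pooled region there. Regions of the pooled list lay in the windows of 48.9% of all genes, so such a region is common. That share also counts the 18.4% of genes with a reproducible summit, so it is not a like comparison for the 14. The share among genes without a reproducible summit was not computed. The highest of the 11 were those of sec-23 with 35.61, sec-22 with 32.92, arf-6 with 32.72 and arf-5 with 31.71. They ranked 5946, 6443, 6482 and 6683 in the pooled list, where copd-1, the lowest of the 20 summits, ranked 4998. The 2 samples gave different heights for sec-22, a SNARE gene: its strongest window region had 8.928 in replicate 1 and 34.28 in replicate 2, where it ranked 3120. For the other SNARE gene, sec-20, the strongest regions had 8.985 in replicate 1, 8.11 in replicate 2 and 21.03 pooled. The strongest pooled region had a signal of 29.2 for sec-12, 21.72 for arf-1, 21.02 for sec-5, 17.04 for copb-2 and 10.98 for cope-1. No pooled region had its summit in the windows of sec-16A.1, sec-8 or sec-10.

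For 3 genes without a promoter summit, a reproducible summit lay in an intron of the gene itself. In arf-1, the gene of the GTPase that recruits COPI, it lay 865 bp downstream of the 5′ end, with 59.69 in replicate 1, 62.86 in replicate 2 and 115.5 pooled. In sec-16A.1 it lay 272 bp downstream, just past the edge of the window, with 23.62 in replicate 1, 45.51 in replicate 2 and 70.72 pooled. In arf-5 it lay 743 bp downstream, with 32.44 in replicate 1 and 57.59 pooled, and no replicate 2 summit lay within 100 bp. When any annotated transcript start was taken as a 5′ end, arf-1 and sec-16A.1 gained a promoter summit.

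Position was compared next. For 16 of the 20 genes with a summit, the strongest one lay 0 to 500 bp upstream (80.0%), against 52.6% of all genes with a promoter summit. The median distance was 265.5 bp, against 367 bp over all such genes. Summits were often shared: 16 of 20 fell in the windows of more than 1 gene (80.0%), against 36.0% of all promoter summits. Of the 20 summits, 14 were intergenic, 3 lay in non-coding genes, 2 in coding exons and 1 in an untranslated exon. When each summit was given only to its nearest protein-coding 5′ end, 12 of the 34 genes were left with one (35.3%), against 12.5% of all genes. With windows of 1000 or 500 bp upstream the count was 17, against 14.0% and 11.2% of all genes, and the genes lost were copb-1, sec-6 and sec-11. Those lost with nearest ends were copa-1, copb-1, copz-1, sec-6, sec-11, sec-15, sec-61.B and trap-4.

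**Figure D3:**
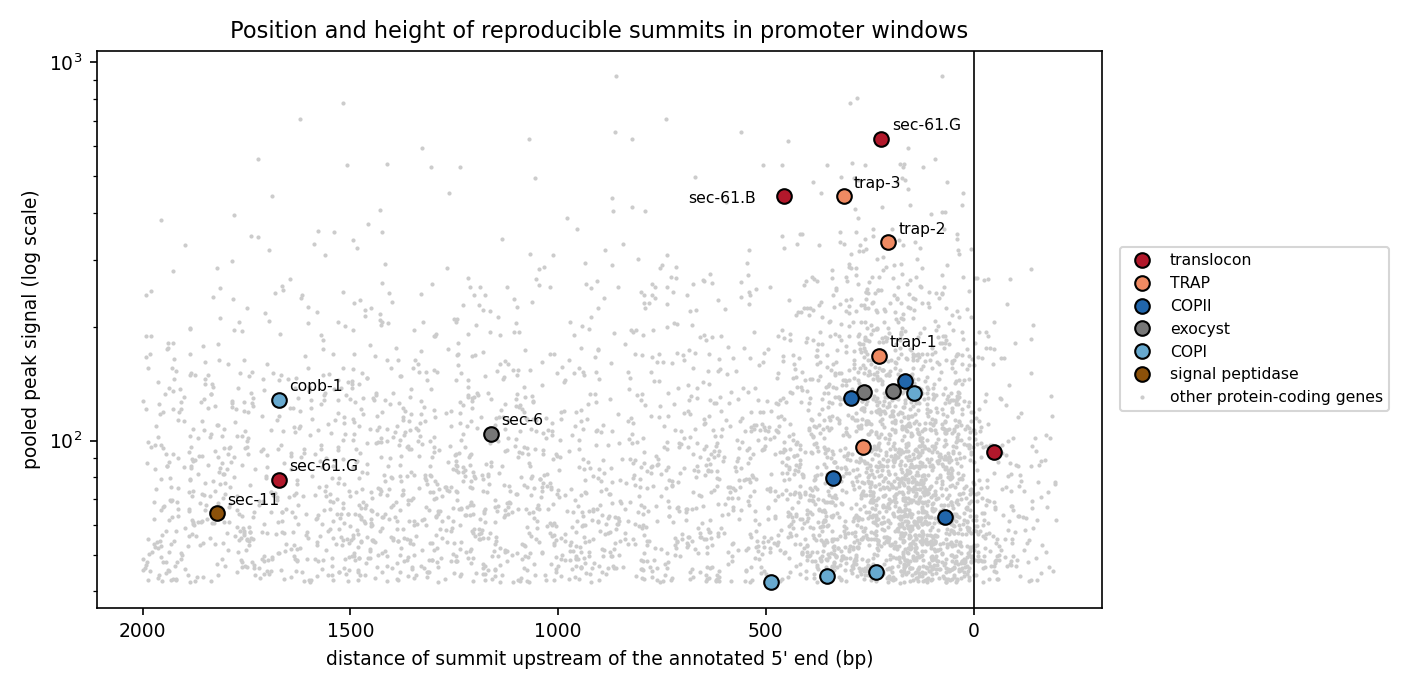
Distance of each reproducible summit upstream of the annotated 5′ end (x axis, bp; 0 is the 5′ end) against pooled signal (y axis, log scale), coloured by role for the secretory genes, with other protein-coding genes in grey. Most coloured points stand within 500 bp upstream, and copb-1, sec-6, sec-11 and the lower sec-61.G summit stand beyond 1000 bp.

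Both replicates gave much the same order of heights. All 20 summits had a counterpart within 100 bp in both replicate lists, as did 4688 of all 5017 reproducible peaks, so this is common. Among the 5017 highest-signal peaks of both were 16 of 20 (80.0%), against 71.6% of all promoter summits. With the top peaks of single replicates in place of the reproducible list, 20 of the 34 genes had a summit in replicate 1 and 19 in replicate 2 (57.4% ± 2.08, SD, n = 2). Of all 19973 genes, 3598 had one in replicate 1 and 3557 in replicate 2. Secretory genes with one in each replicate numbered 16 of 34, against 14.7% of all genes. Replicate 2 was higher at 14 of the 20 summits. On the log2 scale, the difference between replicate 2 and replicate 1 had its median at 0.22 and ran from -0.71 at sec-3 to 1.03 at trap-2. Over all 4688 peaks found in both lists its median was 0.11 with an SD of 0.73. Across the 20 summits the replicate signals had a Spearman's rho of 0.877 and a Pearson's r of 0.882 on the log2 scale. Over the 4688 peaks these were 0.63 and 0.653. The peaks share 2 libraries and were selected on pooled height, so these correlations are descriptions.

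Short sequence elements were looked up within 100 bp of each summit, on both strands. The core of the extended half-site that receptors of this family bind as monomers, CAAGGNC, was present at 2 of 20 summits, against 11.2% of all reproducible summits. By gene it was 2 of 20, against 10.1% of genes with a promoter summit. A window of the same length just before the 5′ end held it for 2.62% of protein-coding genes. One match was at sec-61.A, on the summit itself, and the other at sec-11, 13 bp away. The sec-61.A match has the form CAAGGTC, which 1 of the 20 summits, 4.62% of all reproducible summits and 0.916% of promoters held; it is a subset of the first pattern. The sec-61.A stretch is printed 5′ to 3′ on the coding strand (chrIV:14825202-14825230, minus), with the reverse complement of the element in capitals.
sec-61.A: aatcgtctcgaGACCTTGcagtccgaatt
None of the other translocon or TRAP summits held these letters within 100 bp.

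The letters TGACGTG form the core of an element of the unfolded protein response, bound in mammals by the homologue of XBP-1, the transcription factor that raises ER capacity under stress. They were present at 4 of the 20 genes with a summit, against 3.48% of all genes with a promoter summit. Of all reproducible summits 3.19% held them, and of promoters, read over the same length before the 5′ end, 2.02%. All 4 were coat genes: copb-1, copz-1, sar-1 and sec-31. The stretches are printed to show the matches, 5′ to 3′ on each gene's coding strand, with the element or its reverse complement in capitals. They lie at chrII:3077141-3077169 (plus), chrII:10872791-10872819 (plus), chrIV:4513635-4513663 (minus) and chrIV:11371791-11371819 (minus).
copb-1: atggcgagaacCACGTCActgtgcgagaa
copz-1: tcattgactatTGACGTGgattatcttgt
sar-1: gccactttggaCACGTCAgcgctttccgg
sec-31: tctcattcatcCACGTCAacgttacagct
The distance from summit to element was 6 bp for sar-1, 28 bp for copb-1, 52 bp for sec-31 and 66 bp for copz-1. For copb-1 the element lay 1638 bp upstream of the gene, on the side of Y25C1A.8. A match is a description of the sequence and does not show that any factor was bound.

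Further letters were searched in the same windows. GATAA, the core of GATA factor sites, was present at 6 of the 20 summits, against 37.5% of all reproducible summits and 45.7% of promoters. GAGAGA was present at 8, against 37.9% of all summits and 16.4% of promoters. TTTCAG, the letters of splice acceptors, was present at 6, against 15.1% of all summits and 36.9% of promoters. CACGTG, the E-box, was at 0 of 20, against 7.65% of all summits and 4.23% of promoters.

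**Figure D4:**
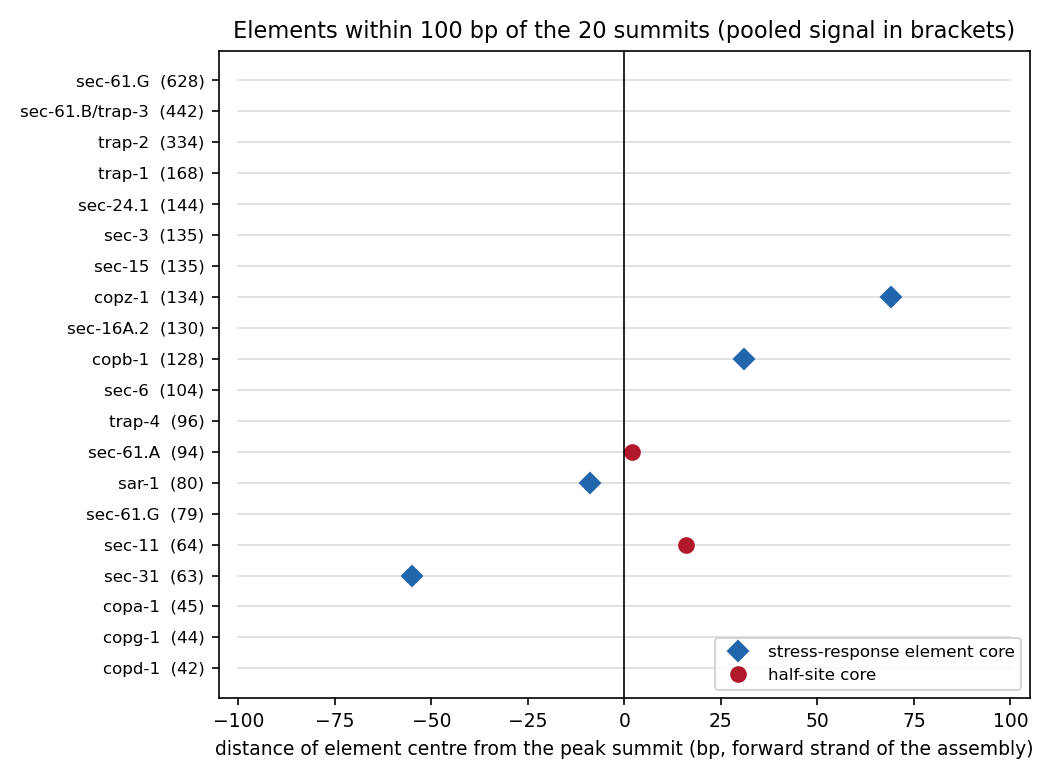
Position of the half-site core (circles) and of the unfolded protein response element core (diamonds) relative to the summit (x axis, bp) in the 20 summit windows, ordered by pooled signal from top to bottom. The circle of sec-61.A and the diamond of sar-1 lie within 10 bp of the summit, and the highest 7 windows hold neither.

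Other genes of the pathway were taken from a list of 72 names outside the rule, of which 69 are in the annotation. A promoter summit was present for 39 of them (56.5%), against 18.4% of all genes. By class, 9 of 10 genes of ER chaperones and folding had one, as did all 4 genes of the unfolded protein response (ire-1, xbp-1, pek-1 and atf-6) and all 4 COPII partners. None of the 6 genes of the ER membrane complex and tail-anchor insertion did. Of the p24 cargo receptor genes 1 of 6 did (16.7%), near the share of all genes. The highest was hsp-3, a BiP-type chaperone gene, with 80.71 in replicate 1, 259.0 in replicate 2 and 341.6 pooled, 40 bp upstream. The replicates differed more there than at any of the 20 summits above. The hsp-3 summit also fell in the window of C15H9.5. spcs-3 of the signal peptidase complex had a pooled signal of 254.5, with its summit 1019 bp upstream and also in the windows of K12H4.5 and K12H4.6. tram-1, a translocon partner, had 253.1, 921 bp upstream and also in the windows of nas-12 and C24F3.2. pdi-6, a protein disulfide isomerase gene, had 248.7, 11 bp upstream, and xbp-1 had 223.4, its summit 16 bp upstream. tmem-131, pdi-2 and pdi-3 followed with 179.7, 176.0 and 170.2, at 374, 72 and 671 bp upstream. Their summits also fell in the windows of smcr-8, C07A12.7 and ubql-1, in that order. No promoter summit was found for srpa-72, dnj-29, spcs-1, stt-3, ero-1, emc-1, tmed-1, erd-2.2, uso-1 or arl-1.

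**Figure D5:**
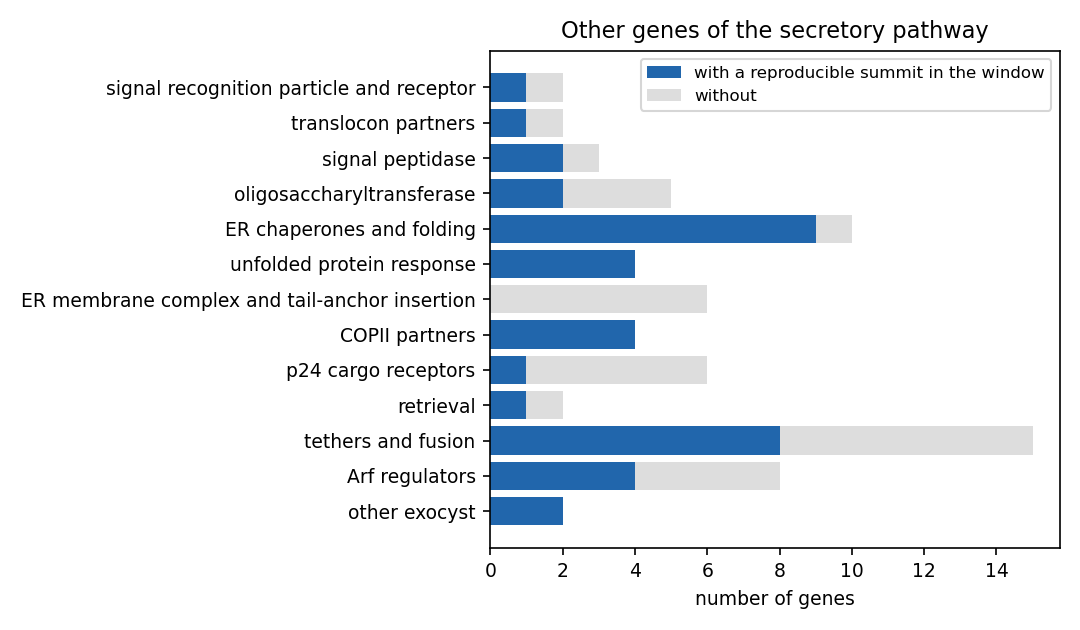
Number of genes (x axis) with and without a reproducible summit in the promoter window, by class of the pathway list. ER chaperones and folding show 9 of 10, the ER membrane complex and tail-anchor insertion 0 of 6.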

How the data were processed

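ChIP-seq of tagged NHR-25 was read from peak lists of 2 samples, labelled biological replicates 1 and 2 of 1 group. Per the index text the authors deposited, each replicate list came from that replicate's alignment and a control, the pooled list from both, and the IDR list from all of these. Neither aligner nor peak caller is given in the sources used here. Each deposited peak has a signal of unstated scale and a q-value on the −log10 scale; 17 of the 20 summits were at its highest value, 3.86, so peaks were ranked by signal. Lists on ce10, controls and signal tracks were not used here.

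Genes came from Ensembl release 115 on WBcel235, the same assembly as ce11, and sequence from RefSeq. Coordinates are 1-based. Annotated 5′ ends were used, although many transcripts are trans-spliced. Summits were matched between lists within 100 bp. Window, matching and search steps were tested on simulated data. Python 3.11.15, pandas 2.3.3, numpy 2.4.6 and scipy 1.17.1 were used.

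The genes, lists, elements and alternatives were chosen with earlier results of these data known. All 34 genes of the rule were named; in the pathway list, the 8 with the highest summits and the first of each class without one. The other unfolded protein response genes, and the stretches with TGACGTG, were singled out after their values were seen. No comparison between conditions exists, so no test was made. Intervals cover counting of genes only.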

Additional observations from a re-analysis of the deposited data

How the results depend on the processing

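Of 33 alternatives over 6 counts, 28 stayed within 1.5 times the value reported. The number of secretory genes with a promoter summit was 20. It was 12, against 12.5% of all genes, when each summit went only to its nearest 5′ end. With the pooled list, background regions included, it was 31, against 48.9% of all genes. Between windows of 1000 or 500 bp and any transcript start it ran from 17 to 22, against 14.0%, 11.2% and 19.7% of all genes. Among the 2508 strongest peaks it was 15, against 10.6%. Without replicate 1 it was 19, against 3557 of all 19973 genes, and copd-1 and copg-1 were lost and sec-22 gained. Without replicate 2 it was 20, against 3598 of all 19973 genes. There copa-1 and sec-31 were lost and arf-5 and sec-12 gained. Restricted to translocon, TRAP, COPI and COPII genes, a choice made after seeing the data, it was 16 of 22, against 18.4% of all genes. The pathway list gave 39 of 69 genes in the main setting and 61 in the pooled list, against 48.9% of all genes in the latter. It gave 27 with nearest 5′ ends only and 27 among the 2508 strongest peaks, against 12.5% and 10.6% of all genes. With windows of 1000 or 500 bp it gave 35 and 30, against 14.0% and 11.2%. It gave 38 in replicate 1 and 40 in replicate 2, against 3598 and 3557 of all 19973 genes. Summits of the secretory genes numbered 20 to 21 in single replicates. The half-site count was 1 with CAAGGTC in place of CAAGGNC. The TGACGTG count was 2 within 50 bp of the summit, a width added after seeing the data, and 4 within 200 bp. No paired analysis was possible because there is 1 group. With no read depth, a gene without a summit is not shown to lack binding.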

Other observations

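The letters TGACGTG were also looked up at the promoter summits of the other pathway genes, a count made after those of the coat genes had been seen. They lay within 100 bp of a promoter summit for 9 of 39 genes (23.1%), against 3.48% of all genes with a promoter summit. The list was chosen with earlier results of these data known and includes ER chaperone and unfolded protein response classes. The difference was not tested. The 9 were hsp-3 and hsp-4, which encode BiP-type chaperones, the calreticulin gene crt-1, the protein disulfide isomerase gene pdi-1, erd-2.1 of the KDEL receptor family, nsf-1, tmem-131, and the Arf exchange factor genes gbf-1 and agef-1. CAAGGNC was present for 1 of the 39, pdi-2 (2.56%), against 10.1% of all genes with a promoter summit.

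The replicates differed at a few of these genes. At erd-2.1 the signal was 11.75 in replicate 1 and 77.7 in replicate 2. At crt-1 replicate 2 had 108.2, and no replicate 1 summit lay within 100 bp.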
